A study of Mus musculus with 2 samples.

Results

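The genes described here are the machinery of cyclic AMP (cAMP) and protein kinase A (PKA) signalling: 38 genes chosen by name for their roles, out of 21815 protein-coding genes measured. They comprise 10 adenylyl cyclases and the Gs-type subunit gene Gnal, 2 catalytic and 4 regulatory subunits of PKA, 3 PKA inhibitors, 2 Epac proteins, 8 A-kinase anchoring proteins, 3 factors of the CREB family and 5 coactivators. The study mapped open chromatin by DNase-seq in the adrenal gland of 2 mice, both B6CASTF1/J males at an age of 25 days, and made 1 library per animal (replicates 1 and 2). B6CASTF1/J animals are F1 hybrids of 2 inbred strains, and the labels name no treatment or genetic modification. A single donor code appears in the labels of both, although they are numbered as separate biological replicates. With 1 group of 2 animals, no condition was compared and no test across animals could be made, so each value is given in both libraries.

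Cyclic AMP is the second messenger through which pituitary corticotropin acts on the adrenal cortex. Adenylyl cyclases make it, phosphodiesterases destroy it, and it frees the catalytic subunits of PKA from their regulatory subunits or activates the Epac exchange factors. PKA then phosphorylates targets near its anchoring proteins and, in the nucleus, CREB family factors, which bind the cAMP response element (CRE) and recruit the coactivators.

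DNase I cuts DNA where nucleosomes are displaced, and a DNase I hypersensitive site (DHS) is a peak of such cuts. The height of a DHS is the authors' signal value. A gene's promoter was called open when a DHS lay at least in part within 1 kb of any annotated protein-coding start, and its promoter height is that of the strongest such DHS. Across the whole gland, a lower height cannot be told apart from fewer cells with the site open.

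The libraries held 130945 and 157786 DHSs in replicates 1 and 2, with median heights of 1.01 and 0.720, and 62.2% and 51.8% of them overlapped a DHS of the other library. The heights were whole multiples of 1 step, which, read as CPM, implies totals of 120 and 113 M counts. Of the genes that define adrenocortical cells, 8 of 8 had an open promoter in both libraries, with summed heights of 48.8 and 26.5. For chromaffin cells of the medulla this held for 6 of 8 markers (49.9 and 29.1, with Pnmt among those at 0), for neurons for 6 of 6 (19.4 and 8.46), for endothelium for 3 of 4 (6.44 and 5.53) and for the capsule for 3 of 4 (16.1 and 7.71). Macrophage and testis markers were at 0 in both libraries, 4 of 4 each. Lymphocyte markers differed between the animals, with 1 of 4 open in replicate 1 and 4 of 4 in replicate 2 (summed heights 0.50 and 6.17).

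Nearly the whole pathway had open promoters in both animals. A promoter DHS was present in both libraries for 36 of the 38 genes, while Adcy4 and Akap6 had none in either. Over all protein-coding genes, 69.4% were open in replicate 1, 69.1% in replicate 2 and 65.8% in both. The shorter of the deposited peak lists kept 35 of the 38 in both libraries (60.6% of all genes), the loss being Rapgef4 in replicate 2. The median promoter height of the 38 genes was 10.2 in replicate 1 and 6.52 in replicate 2, against 3.99 and 2.60 over all genes. Heights of 10 or more in both libraries were reached by 12 of the 38, against 19.9% of all genes.

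CpG content around the 5′-most start separated the open from the closed genes only in part. The observed over expected CpG ratio around the 5′-most start was 0.6 or more in 30 of the 38 genes, and all 30 were open in both libraries, as were 96.8% of all genes with such a ratio. Of the 8 genes below that ratio, 6 were open in both, against 38.8% of all such genes. Adcy4 (0.44) and Akap6 (0.41) are the closed pair. The 6 others were Adcy10, Prkar1a, Prkar2a, Pkib, Rapgef3 and Akap12. In Prkar1a, Prkar2a, Adcy10 and Akap12 the strongest promoter DHS lay at a start cluster downstream of the 5′-most one. Around those later clusters the ratio was 0.70 in Prkar1a and 0.96 in Prkar2a, but 0.18 in Adcy10 and 0.29 in Akap12. Prkar1a and Prkar2a were thus below 0.6 at the 5′-most start but not where their strongest promoter DHS lay. The median ratio was 0.75 in the 38 genes and 0.56 in all genes, and the 30 of 30 open among the CpG-rich members lies near the CpG-rich background.

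**Figure D1:**
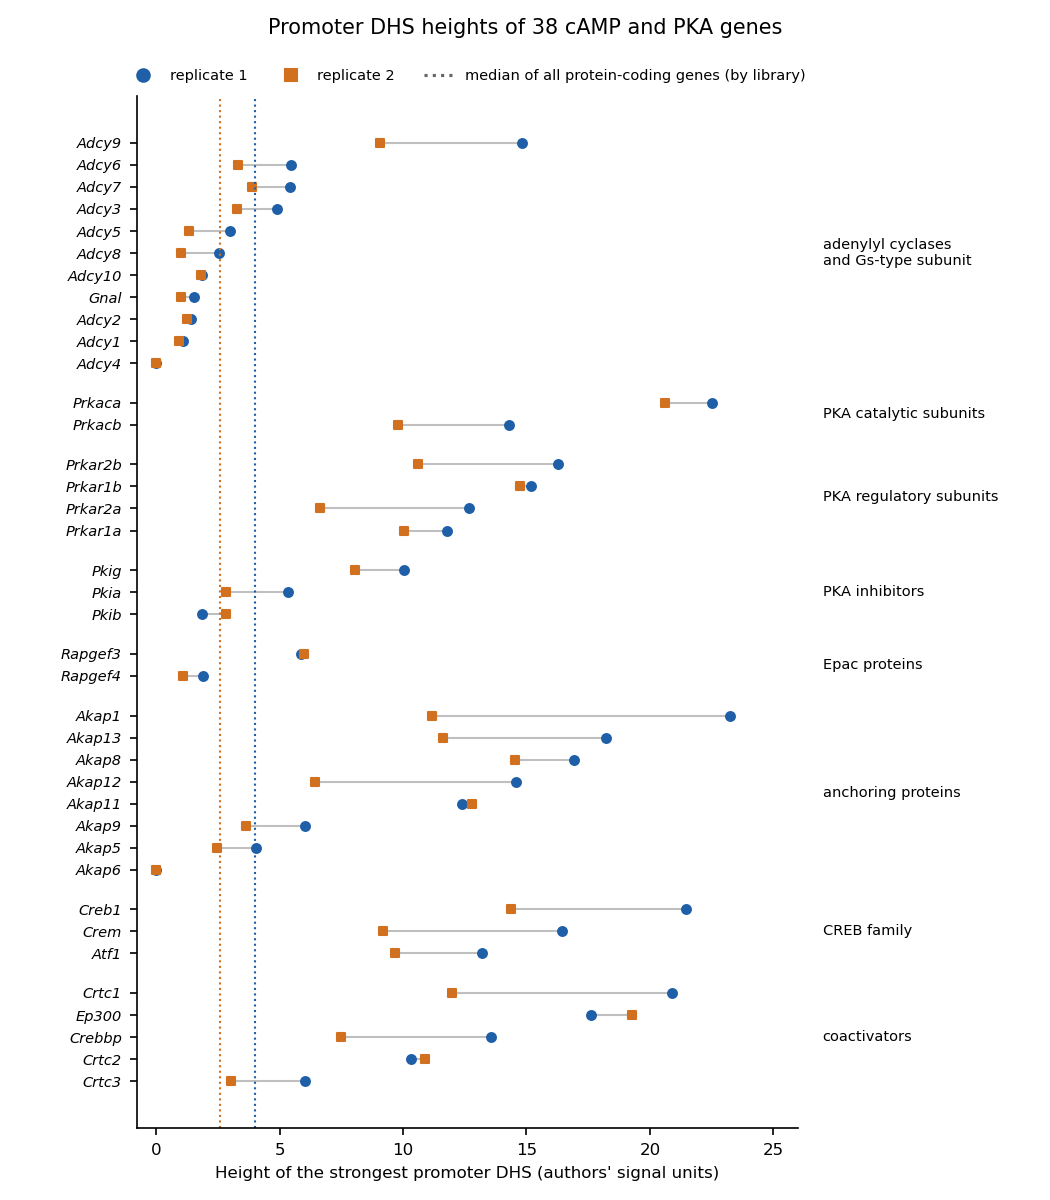
Height of the strongest promoter DHS (horizontal axis, authors' signal units) for each of the 38 genes, grouped by role, with 1 point per library and dotted lines at the medians of all protein-coding genes (3.99 and 2.60). The adenylyl cyclases other than Adcy9 sit at or below 5.47, whereas both catalytic and all 4 regulatory subunits lie above both medians, and Adcy4 and Akap6 are at 0.

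Among the roles of the 38 genes, the cyclases and Gnal had the lowest median promoter height. The 10 cyclases and Gnal had median promoter heights of 2.56 and 1.34, below the medians of all genes, and 10 of the 11 were open in both libraries. Adcy9, a widely expressed cyclase that responds poorly to forskolin, stood above the rest at 14.8 in replicate 1 and 9.07 in replicate 2 (chr16:4420401-4420620, across its 5′-most start). Its height in either library exceeded that of every other cyclase in both.

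Adcy6 followed at 5.47 and 3.31, Adcy7 at 5.40 and 3.86 and Adcy3 at 4.87 and 3.28, all 3 above the all-gene median of their library. Adcy5 and Adcy6 encode the calcium-inhibited cyclases, and Adcy5 was lower, at 2.97 and 1.34. Adcy1, Adcy3 and Adcy8 encode cyclases that calcium and calmodulin stimulate. Of these, Adcy1 was at 1.07 and 0.906 and Adcy8 at 2.56 and 1.02. Adcy2, whose product is stimulated by G protein beta-gamma subunits, was at 1.41 and 1.23.

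Adcy10 encodes the soluble cyclase that bicarbonate activates, best known in sperm. Its 5′-most start had no DHS within 1 kb, and the height of 1.84 and 1.83 belonged to a start 18.8 kb further in (chr1:165503801-165503980). Gnal encodes the stimulatory alpha subunit of olfactory neurons and striatum. Its promoter heights were 1.52 and 1.01. Weak DHSs lay within 1 kb of the start of the longer protein (448 residues, 1.41 and 0.844). The same held for the start 44.8 kb in (381 residues, 1.52 and 1.01). On the starts themselves the heights were 0.75 and 0 for 448 residues, and 0 and 0.533 for 381 residues. The DHS of 1.52 and 1.01 was nearest to a later start, 45.5 kb in (134 residues). Of the olfactory neuron markers, 2 of 4 had a promoter DHS in replicate 1 and 0 of 4 in replicate 2 (summed heights 1.93 and 0), with Omp and Cnga2 at 0 in both, and the part of such cells in the Gnal value was not tested.

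Adcy7, a cyclase of blood cells among other tissues, had DHSs at different starts in the 2 animals, as did Adcy6. The 5′-most start had 5.19 and 2.83, and the start 10.6 kb in had 5.40 and 3.86. The starts at 16.7 kb and 21.8 kb had no DHS in replicate 1 and heights of 1.39 and 1.31 in replicate 2. The lymphocyte markers moved the same way between the libraries, and their part in this was not tested. In Adcy6 the difference ran the other way, with a height of 1.82 at the start 2.44 kb in for replicate 1 and no DHS there in replicate 2.

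Adcy4 (chr14:55769057-55784095) was closed. Replicate 1 listed no stretch at a false discovery rate (FDR) of 0.05 or less within 1 kb of its starts, and replicate 2 listed 10 bp with a lowest FDR of 0.0362. The nearest DHS was centred 2615 bp inside the gene from the 5′-most start, with heights of 2.11 and 1.74, and it was the only DHS assigned to Adcy4 in either library.

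Adcy8 was 1 of 2 members whose strongest promoter DHS held a full CRE, the 8 letters TGACGTCA, which read the same on both strands. The DHS spans chr15:64923101-64923280 in replicate 1, in no annotated exon, and its CRE lies at −903 bp from the only annotated start. The sequence is the mm10 reference on the strand of the gene, with the CRE in capitals, and is shown because a footprint touched that CRE in both libraries.
Adcy8: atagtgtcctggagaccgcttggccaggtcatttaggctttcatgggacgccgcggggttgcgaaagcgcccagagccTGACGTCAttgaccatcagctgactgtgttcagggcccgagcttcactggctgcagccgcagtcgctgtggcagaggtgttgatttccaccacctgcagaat

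A footprint is a short stretch within a DHS with fewer cuts than its flanks. The footprint of replicate 1 covered the whole Adcy8 CRE, and that of replicate 2 covered part of it. The height of the DHS was 2.56 in replicate 1 and 1.02 in replicate 2.

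Both genes for the catalytic subunits of PKA had tall promoters. Prkaca, the main catalytic subunit and a gene mutated in human cortisol-producing adenomas, was at 22.5 in replicate 1 and 20.6 in replicate 2 (chr8:83972641-83973020, over and upstream of the start of the 351-residue protein). Its percentile among the promoter heights of all genes was 95.9 and 98.6. Its other annotated start, 3.89 kb in, opens the 343-residue protein and had no DHS on it, with the strongest DHS within 1 kb at 1.23 and 1.17. Prkacb was at 14.3 and 9.81 at its 5′-most start. Of its 5 later start clusters, 1 had a DHS within 1 kb in both libraries (31.5 kb in, 398 residues, 0.917 and 0.799), and none had a DHS on the start itself. The high promoters of the catalytic genes were thus those of the 5′-most starts alone.

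All 4 regulatory subunit genes were open at heights above the medians of all genes. Prkar2b, the type II subunit of endocrine, fat and nervous tissue, was at 16.3 and 10.6. Prkar1b was at 15.2 and 14.7, in a DHS that also lies within 1 kb of the start of Dnaaf5, a dynein assembly factor gene on the other strand. Prkar2a was at 12.7 and 6.62, at a start cluster 2.83 kb downstream of the 5′-most one, which had 0.617 in replicate 1 and no DHS in replicate 2. Prkar1a was at 11.8 and 10.02. The lowest of the 4 in replicate 1 was Prkar1a and in replicate 2 Prkar2a, so their order was not the same in both animals.

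Prkar1a encodes the subunit that restrains PKA in the adrenal cortex and is mutated in Carney complex, an inherited syndrome with nodular adrenal disease. It has 2 start clusters, both opening the same 381-residue protein. The 5′-most had a strongest DHS of 3.47 and 2.61 within 1 kb, whereas the cluster 1.17 kb in had the DHS of 11.8 and 10.02. No DHS lay on the 5′-most start itself in either library. The DHS of 3.47 and 2.61 (chr11:109650361-109650560) lay between the 2 clusters, just upstream of the later one. The DHS of 11.8 and 10.02 (chr11:109650821-109651000 in replicate 1) held the other full CRE of a strongest promoter DHS. This CRE is at chr11:109650900-109650907, −17 bp from an annotated start. The 100 bases upstream of that start, which lie between annotated exons, are shown from the mm10 reference with the CRE in capitals.
Prkar1a: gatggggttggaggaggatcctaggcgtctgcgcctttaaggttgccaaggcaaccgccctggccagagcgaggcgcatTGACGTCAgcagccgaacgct

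In replicate 1 a footprint of chr11:109650895-109650914 covered this CRE, and in replicate 2 a footprint of chr11:109650897-109650903 covered part of it. The same CRE was thus touched in both animals.

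The PKA inhibitor genes, which encode small proteins that block the free catalytic subunits, were open in both libraries, 3 of 3, at lower heights. Pkig was at 10.04 and 8.06, Pkia at 5.32 and 2.84 and Pkib at 1.84 and 2.82. Pkib was 1 of 5 members with a taller promoter DHS in replicate 2. The later start clusters of Pkia (62.4 kb in) and Pkib (13.9 and 19.0 kb in) had no DHS within 1 kb in either library, so the open chromatin of both genes' promoters was at the 5′-most start.

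The Epac genes encode exchange factors for the small GTPase Rap that bind cAMP directly. Rapgef3 (Epac1) was at 5.87 and 5.98 at its promoter, in DHSs that do not overlap. That of replicate 1 (chr15:97767881-97768080) lay across the 5′-most start, and that of replicate 2 (chr15:97767641-97767820) downstream of it. Rapgef4 (Epac2) was at 1.90 and 1.07, among the weakest of the pathway, yet with 28 and 35 DHSs assigned to it, it and Akap13 (29 and 35) had the most of the 38 genes in both libraries. A DHS was assigned to the gene with the nearest protein-coding start, up to 100 kb away. DHSs that touched the 1 kb around its starts held 10.7% and 14.9% of the summed DHS height of Rapgef4.

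Rapgef4 has 2 start clusters, which matter here because a shorter Epac2 protein from an internal promoter is known from the adrenal gland. The 5′-most, for a protein of 1011 residues, had 1.90 and 1.07 within 1 kb and 1.90 and 0.995 on the start itself. The internal cluster, 73.4 kb in and opening a protein of 867 residues, had 1.54 and 0.986 within 1 kb and 0.70 and 0.959 on the start itself. On the start itself the 5′-most was thus the taller in replicate 1, and the values were close in replicate 2. Of the DHSs of Rapgef4 that touched no promoter window, 17 overlapped between the libraries, the most of any member. The strongest of them by mean height was 115 kb into the gene in an intron (6.59 and 2.11). In replicate 2 other shared sites were taller, up to 3.28 at −15.6 kb. The site 115 kb in is shown on the strand of the gene because it is taller than the promoter in both libraries, with capitals for the bases in footprints of both.
Rapgef4 (chr2:72096441-72096620): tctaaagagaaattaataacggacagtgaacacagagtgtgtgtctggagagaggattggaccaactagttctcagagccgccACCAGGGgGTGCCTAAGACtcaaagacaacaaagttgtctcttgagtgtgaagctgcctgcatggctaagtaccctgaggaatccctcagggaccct

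**Figure D2:**
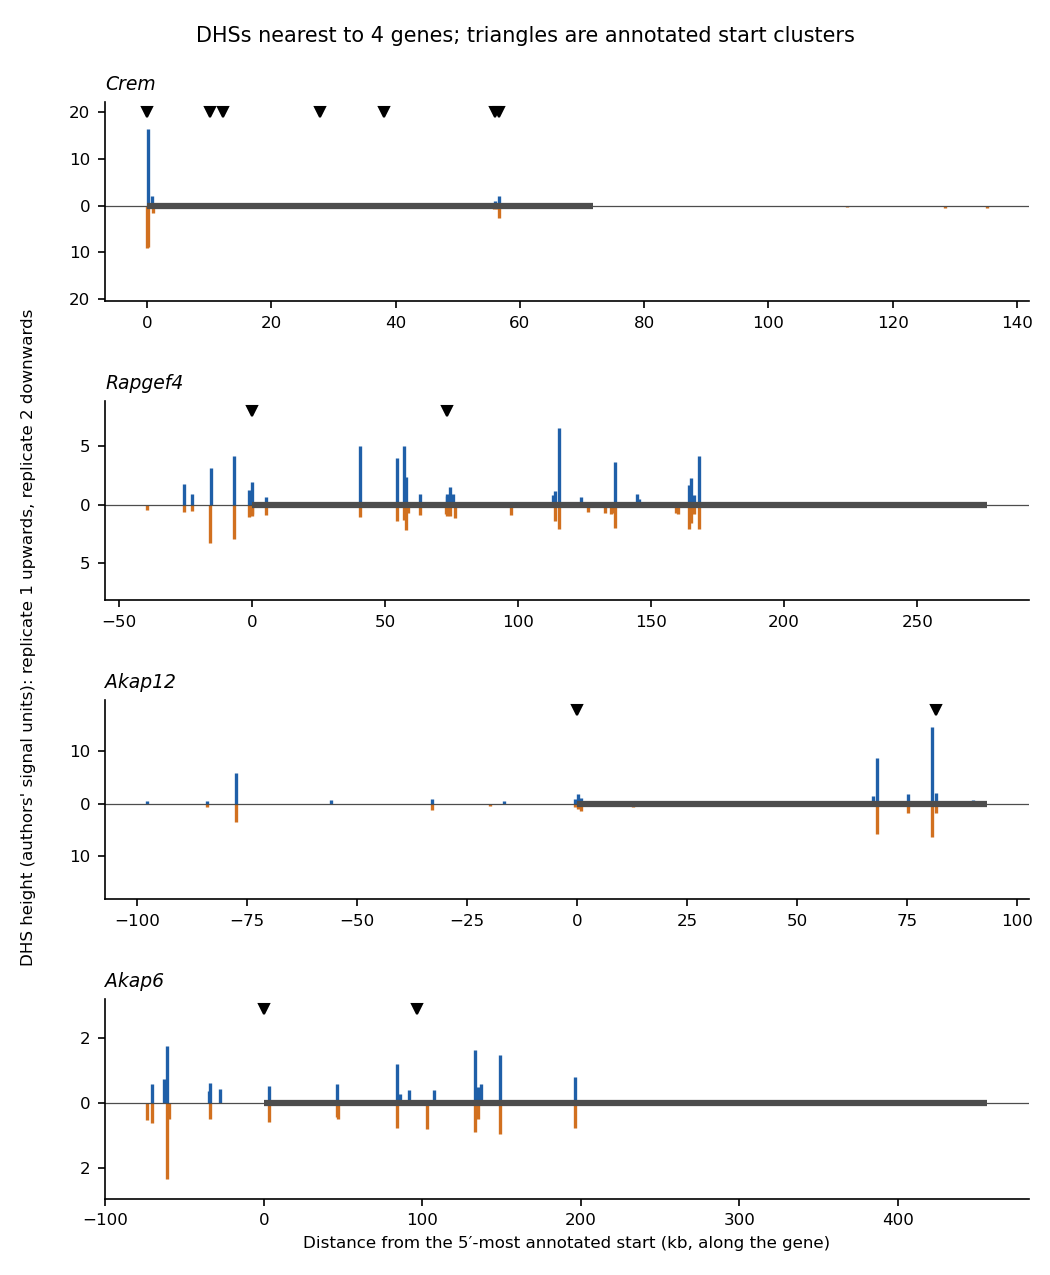
Each DHS nearest to Crem, Rapgef4, Akap12 and Akap6, at its distance from the 5′-most annotated start (kb), with its height in authors' signal units drawn upwards for replicate 1 and downwards for replicate 2. The thick line is the gene and triangles mark annotated start clusters. Crem has its height at the 5′ end (16.4 and 9.20), Akap12 near its downstream start (14.6 and 6.42), and in Rapgef4 and Akap6 the tallest DHSs lie away from the starts.

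The anchoring proteins tether PKA to places in the cell, and 7 of 8 genes were open in both libraries, with median heights of 13.5 and 8.80. Akap1, which holds PKA on the mitochondrial surface, had the tallest promoter of all 38 genes in replicate 1, at 23.3, and 11.2 in replicate 2. That drop changed its rank, since 8 members lay above 11.2 in replicate 2. Akap13 was at 18.2 and 11.6, Akap8 of the nucleus at 16.9 and 14.5 and Akap11 at 12.4 and 12.8. Akap9 of the Golgi and centrosome was at 6.02 and 3.65 and Akap5 of the plasma membrane at 4.03 and 2.44.

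Akap12 (Gravin), a scaffold for PKA and protein kinase C, had its tallest promoter DHS upstream of its downstream start. Within 1 kb of the start 81.4 kb in, for a protein of 1579 residues, lay a DHS of 14.6 and 6.42 (chr10:4346881-4347080, with its centre at −788 bp in replicate 1), and the DHS on that start itself had 1.95 and 1.75. The 5′-most start, for 1684 residues, had 1.77 and 1.37 within 1 kb and no DHS on the start itself. Within 1 kb, the lower value at the downstream start exceeded the higher value at the 5′-most. A further DHS, 68.1 kb into the gene in an intron, had 8.76 and 5.78, taller than the 5′-most promoter in both libraries. It is shown with capitals for bases in footprints of both libraries.
Akap12 (chr10:4334401-4334560): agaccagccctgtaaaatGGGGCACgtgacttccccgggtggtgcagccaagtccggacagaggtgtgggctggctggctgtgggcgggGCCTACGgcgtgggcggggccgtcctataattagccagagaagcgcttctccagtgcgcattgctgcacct

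Akap6 (chr12:52699383-53155599), an anchoring protein of the nuclear envelope of muscle and nerve cells, had no DHS and no stretch at an FDR of 0.05 or less within 1 kb of either start in either library. The nearest DHS to the 5′-most start lay 3405 bp downstream in replicate 1 (0.508) and 3372 bp downstream in replicate 2 (0.586). Yet 18 and 14 DHSs were assigned to this gene of 456 kb, with summed heights of 13.1 and 10.8, and 10 of them away from promoters were shared. A closed promoter thus went with a DHS count above the medians of all genes (3 and 4).

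The CREB family genes had tall promoters, 3 of 3 open in both libraries. Creb1 was at 21.5 and 14.4 (chr1:64532681-64532920), Crem at 16.4 and 9.20 and Atf1 at 13.2 and 9.69. Creb1 was the tallest of the 3 in both libraries.

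Crem encodes activators from its 5′ start and, from internal starts, the short repressor ICER, which cAMP induces in endocrine tissue. Of its 7 start clusters, the 5′-most (357 residues) had 16.4 and 9.20, the next 4, which lie 10.2 to 38.2 kb in, had no DHS within 1 kb in either library, and the last pair lay 56.0 and 56.6 kb in. DHSs lay on both of these starts. The cluster for 119 residues had 2.09 and 2.63 on it, and that for 125 residues 0.958 and 0.737. The internal starts were open in both animals at a fraction of the height of the 5′ start.

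The DHSs on the internal starts of Crem held 2 full CREs in replicate 1 and 3 in replicate 2, spread over separate DHSs. The DHS at the cluster 56.6 kb in had one at −4 bp from the nearest start. In replicate 2, where that DHS reached further, it had another at −40 bp from its nearest start. The remaining one was in the DHS at the cluster 56.0 kb in, at −56 bp from a start there. No other member had more than 1 in all its promoter DHSs. Over all genes with an open promoter, 2 or more were found in 0.139% in replicate 1 and 0.153% in replicate 2, and 3 genes in each library had 3 or more.

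Counting all their promoter DHSs, 3 members held a full CRE (Crem, Prkar1a and Adcy8), against 4.08% and 4.15% of all open genes. In the strongest promoter DHSs the count was 2 of 36, against 3.39% and 3.33% of the same over all genes. With 1 gene fewer, the share of the members would be below that background. None of the members' DHSs away from promoters held a full CRE. A footprint touched 4 of 4 member CREs in replicate 1 and 5 of 5 in replicate 2, beside 82.5% and 64.0% of full CREs in all DHSs near genes. The shorter TGACG, which a full CRE contains and which was searched on both strands, was in 14 and 13 of the 36 strongest promoter DHSs, against 27.8% and 27.1% over all genes. It was in those of Creb1, Crebbp, Ep300, Prkaca, Prkacb and Akap11 in both libraries, among others. A match of letters does not show that a factor was bound.

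The coactivators were open in both libraries, 5 of 5, with median heights of 13.5 and 10.9. Crtc1, Crtc2 and Crtc3 encode the CREB-regulated coactivators, which enter the nucleus when their kinases are inhibited by PKA. Crtc1 was at 20.9 and 11.98, Crtc2 at 10.3 and 10.9 and Crtc3 at 6.02 and 3.02. Ep300 and Crebbp encode the paralogous histone acetyltransferases p300 and CBP. Ep300 was at 17.6 and 19.3, and Crebbp at 13.5 and 7.50. In replicate 2 only Prkaca had a taller promoter than Ep300 among the 38 genes.

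Open chromatin was found more often at the 5′-most start than at later ones. A DHS lay within 1 kb of the 5′-most start in both libraries in 34 of the 38 genes, against 62.4% of all genes. Of the 57 later start clusters (starts merged within 500 bp) of the 26 members with several, 23 had a DHS in both libraries and 26 in neither, and over all genes 31.5% of later clusters had one in both. Some later clusters lie so close to the 5′-most that the same DHS serves both, as in Adcy9, Akap1 and Crebbp. In 6 members the strongest promoter DHS was at a later cluster in both libraries: Adcy7, Adcy10, Gnal, Prkar1a, Prkar2a and Akap12. Footprints in the strongest promoter DHS were found in both libraries for 33 of the 36 open members, against 92.4% of all genes open in both, with medians of 5 and 3 per DHS. The 3 without one in replicate 2 were Adcy1, Adcy6 and Pkib.

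Around the promoters, the members carried more DHSs than most genes, and they are longer genes. The median member had 8 DHSs in replicate 1 and 8.5 in replicate 2, against 3 and 4 over all genes. The median member is 79.6 kb long, and the median gene 17.4 kb. Genes at least as long as the median member had medians of 9 and 10 DHSs, above those of the members. Summed heights had medians of 22.1 and 16.3, against 9.95 and 7.14 over all genes. Akap1 departed from its length, with 17 and 23 DHSs at 33.8 kb.

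**Figure D3:**
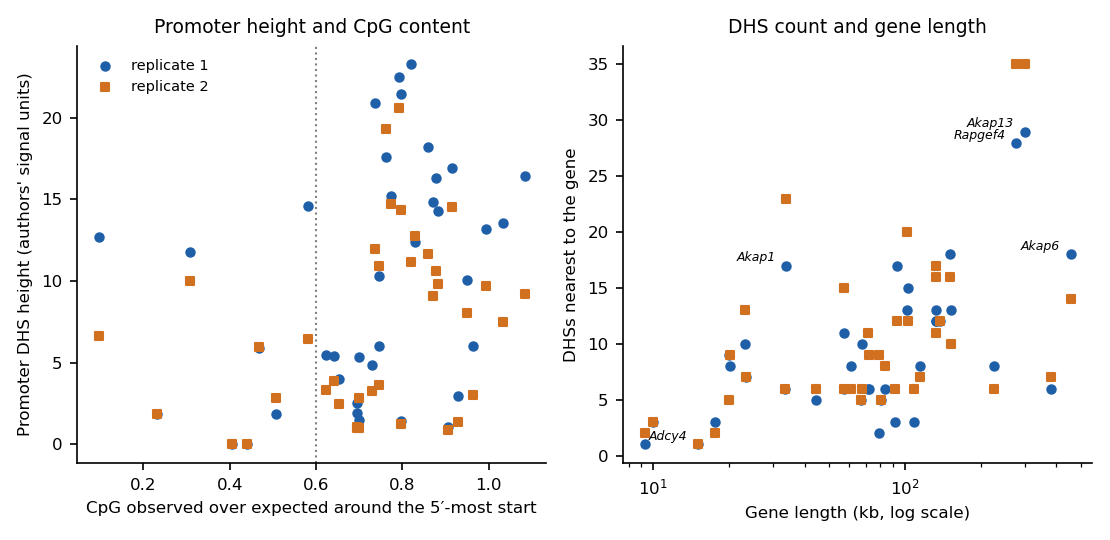
Left, promoter DHS height (authors' signal units) against the CpG observed over expected ratio around the 5′-most start, with a dotted line at 0.6. Right, the number of DHSs nearest to each gene against gene length (kb, log scale), with 1 point per gene and library in both plots. Both genes at 0 lie left of the line, and Rapgef4 and Akap13 have the most DHSs (28 to 35).

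DHSs were counted as away from promoters where their centre lay more than 1 kb from the nearest protein-coding start. By that rule 250 DHSs in replicate 1 and 283 in replicate 2 were assigned to the 38 genes, and 37 of the genes had at least 1. With their edges, 7 and 2 of them still touched the 1 kb around a start of the same gene and so also counted at its promoter. Of the 250 and 283 DHSs, 63.2% and 55.1% overlapped a DHS of the other library by 1 bp or more, against 59.1% and 52.8% of all such DHSs. The DHSs of the 38 genes had median heights of 0.933 and 0.782, near those of all (0.942 and 0.746), and 64.8% and 62.2% of them lay in introns. Assignment to the nearest start does not show which gene a DHS acts on.

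The strongest shared one by mean height lay between genes at −54.2 kb from the start of Crebbp, at 10.4 and 6.08. The next, in an intron of Adcy9 50.1 kb into the gene, had 8.09 and 7.97, nearly the height of the Adcy9 promoter in replicate 2 (9.07). Both lead the shared sites of the 38 genes by mean height and are shown with capitals for bases in footprints of both libraries and each on the strand of its gene.
Crebbp (chr16:4268161-4268320): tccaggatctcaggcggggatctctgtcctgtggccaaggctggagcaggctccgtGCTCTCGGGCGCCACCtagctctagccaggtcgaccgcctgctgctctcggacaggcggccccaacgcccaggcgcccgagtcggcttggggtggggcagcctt
Adcy9 (chr16:4370301-4370460): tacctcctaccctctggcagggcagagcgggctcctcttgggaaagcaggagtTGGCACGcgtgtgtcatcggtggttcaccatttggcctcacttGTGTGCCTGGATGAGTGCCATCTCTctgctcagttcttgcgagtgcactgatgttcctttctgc

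Adcy5 had 2 of the 10 strongest, and both differed more between the animals than the others. The site at −44.3 kb from its start, between genes, was at 9.03 and 2.61, and the site 24.5 kb into its intron at 6.94 and 2.29. Both were taller than the Adcy5 promoter (2.97 and 1.34) in both libraries. The upstream site is shown in the same way.
Adcy5 (chr16:35110521-35110700): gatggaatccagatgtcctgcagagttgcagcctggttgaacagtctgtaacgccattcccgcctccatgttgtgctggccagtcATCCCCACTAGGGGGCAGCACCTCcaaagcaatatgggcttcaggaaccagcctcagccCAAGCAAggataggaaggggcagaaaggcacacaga

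The other strong sites were lower. Akap1 had one 15.0 kb into the gene in an intron (6.13 and 4.30), and Rapgef3 one over an exon 17.1 kb in (6.11 and 3.84). Creb1 had one between genes at −86.4 kb (5.68 and 3.89), and Akap12 one between genes at −77.6 kb (5.84 and 3.57). That of Crtc3, at −52.3 kb (5.66 and 3.42), lies within the neighbouring gene Iqgap1. In the other roles the strongest shared sites were in an intron of Pkig (6.42 and 2.25), at −48.2 kb from the start of Prkar2b (2.86 and 3.87) and in an intron of Prkaca (1.96 and 1.12). The catalytic subunits, with some of the tallest promoters, thus had a weak strongest site away from them.

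**Figure D4:**
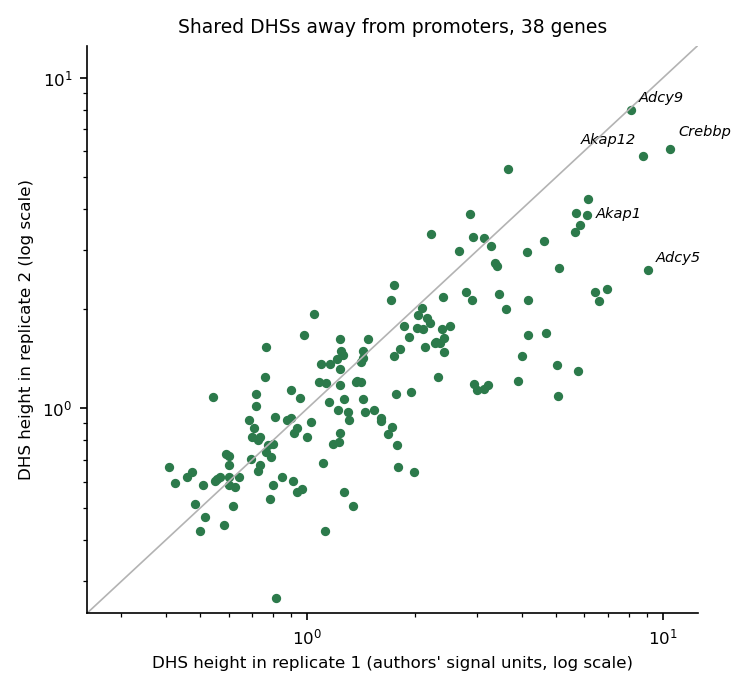
Heights of the 158 DHSs of replicate 1 that lie away from promoters, are assigned to the 38 genes and overlap a DHS of replicate 2 (both axes in authors' signal units, log scale), with a line of equal height. The 5 strongest by mean height are named, and Adcy5 lies furthest below the line among them (9.03 and 2.61).

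The same 36 of the 38 genes were open in each animal, and heights differed. Promoter heights were greater in replicate 1 for 31 of the 36 open members and in replicate 2 for 5 (Pkib, Rapgef3, Akap11, Crtc2 and Ep300), and over all genes open in both 88.3% were higher in replicate 1. Summed DHS heights were therefore scaled to each library's total before the ratio of replicate 2 over replicate 1 was taken, with 0.5 added to each. The median log2 ratio was 0.10 over the 38 genes and 0.01 over all genes with a DHS, whose middle 50% ran from −0.31 to 0.37. Of the 38, 22 were above 0, against 51.0% of such genes.

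The members furthest from 0 were Pkib (0.87), Adcy10 (0.80), Crem (0.62) and Akap11 (0.47) on the side of replicate 2, and Adcy8 (−0.80), Prkar1b (−0.80), Adcy5 (−0.75) and Adcy6 (−0.58) on the side of replicate 1. Pkib had 3 and 6 DHSs with summed heights of 2.97 and 4.44, and Adcy10 3 and 6 with 3.77 and 5.27. Both are low sums, to which a few DHSs add much. Crem had 6 and 11 DHSs, with 22.2 and 26.1. Adcy8 had 8 and 6, with 11.1 and 4.66, and Adcy5 18 and 16, with 36.9 and 16.5. The promoter DHS of Prkar1b was nearer to the start of Dnaaf5 in replicate 2 and so not in its sum (37.4 and 16.2), while its promoter height was 15.2 and 14.7. With 1 library against 1, none of these ratios has a replicate check.

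**Figure D5:**
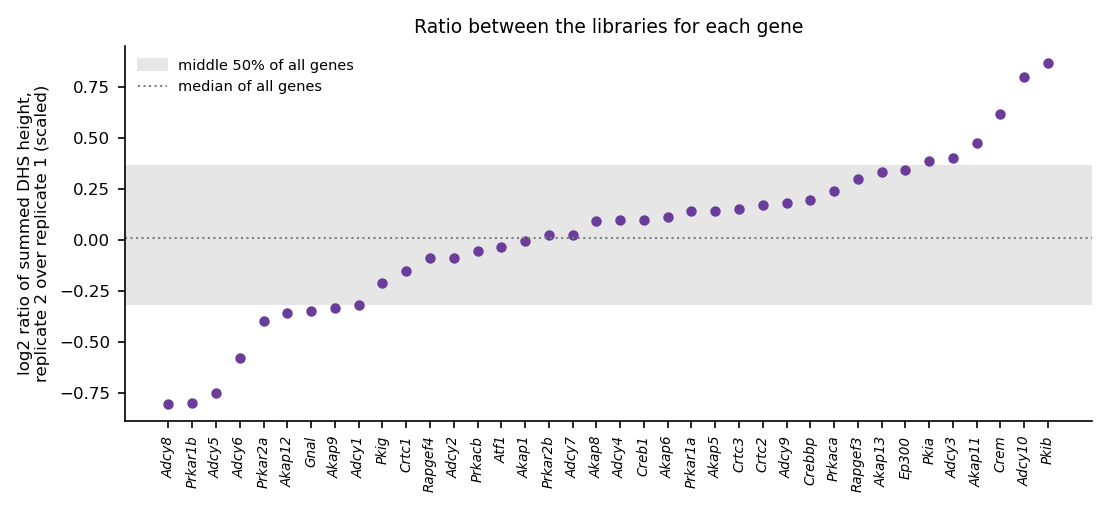
Log2 ratio of scaled summed DHS height, replicate 2 over replicate 1, for the 38 genes in order (vertical axis), with the middle 50% of all genes shaded (−0.31 to 0.37) and their median dotted (0.01). Adcy8 and Prkar1b (−0.80) stand at 1 end and Pkib (0.87) at the other.

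Of 69 other pathway genes, 61 were open in both libraries, against 65.8% of all genes and 96.8% of those rich in CpG. The shorter peak list gave 51 (60.6% of all genes), and the 50000 strongest DHSs gave 50. G protein genes were open in 8 of 8, with Gnas, the stimulatory subunit that couples the corticotropin receptor to the cyclases, at 10.9 and 7.59, Gnai2 at 15.5 and 14.3 and Gnai1 at 6.44 and 3.77. The Gnas height belonged to a start 45.7 kb downstream of its 5′-most one. Of 12 receptors that raise cAMP, 11 were open in both. The corticotropin receptor Mc2r had a weak promoter DHS (0.458 and 0.666) with 18 and 14 DHSs assigned to it, and the PACAP receptor Adcyap1r1 was at 1.45 and 0.711. Gipr was closed.

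Of 13 phosphodiesterases, which end the signal, 12 were open in both. Pde8b and Pde11a, both genes mutated in human adrenal hyperplasia, were at 5.42 and 3.28 and at 1.63 and 0.897. Pde2a was at 12.4 and 5.02, and Pde4c was closed. In both libraries the Pde8b height belonged to a start 27270 bp downstream of its 5′-most one, and the Pde2a height to a start 28829 bp downstream. The kinases that hold back the CRTC coactivators were open in 3 of 3, with Sik1 at 25.2 and 20.1, Sik2 at 14.0 and 10.3 and Sik3 at 17.1 and 12.3. Sik1 lay above every one of the 38 members in replicate 1, and in replicate 2 below Prkaca alone.

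Other anchoring proteins were open in 6 of 9. Akap7 was at 11.03 and 9.50, Akap10 at 14.5 and 12.2 and Akap2 at 7.42 and 5.92, while Akap3, Akap4 and Akap14 were closed. The Akap2 heights belonged to different starts, 40085 bp downstream of the 5′-most one in replicate 1 and 103152 bp in replicate 2. Those of Akap7 belonged to a start 10797 bp downstream in both libraries. Akap3 and Akap4 encode proteins of the sperm tail. Other cAMP effectors were open in 6 of 9, with the kinase gene Prkx at 7.76 and 5.68, and Popdc2 and the olfactory channel gene Cnga2 closed. CREB-like factors were open in 5 of 5 (Creb3 at 10.1 and 9.94, Creb5 at 7.26 and 4.35, Creb3l1 at 5.32 and 3.16) and known cAMP target genes in 10 of 10. Among the targets, Star, which brings cholesterol into mitochondria, was at 7.55 and 4.02, Nr4a1 at 23.8 and 13.7 and Per1 at 19.5 and 15.6. The Nr4a1 height belonged to a start 12577 bp in for both libraries. The Per1 height belonged to a start 3731 bp in for replicate 1 and to the 5′-most start for replicate 2.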

How the data were processed

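DNase-seq of adrenal gland from 2 animals was analysed from the authors' deposited files, in mm10 per the labels. Peak height is a deposited signal value of the authors, and the deposited false discovery rates are q-values (stretches at 0.05 or less, and footprints at 0.01). What aligned the reads and called peaks and footprints is not given in the sources used here. Reads of an F1 hybrid placed on mm10 can be lost where the strains differ, and printed sequences are the reference, read from GRCm38.p6, whose chromosomes match the files. Genes and starts (54249) came from GENCODE release M21 without repeated symbols. The longer peak list was the main one. CpG ratios used 500 bp on each side of a start.

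The members and lists were chosen with earlier results of these data known. All 38 members were eligible to be named, with the first 3 of each other list and those closed in both libraries, the 10 strongest shared DHSs away from promoters and the strongest per role, and all start clusters of 7 genes fixed by name. Some genes that this rule takes are not reported here. Other start clusters, and the Rapgef4 site printed, were named after their values were seen. Python 3.11.15, pandas 2.3.3 and pysam 0.24.0 were used. The code was tested on simulated data. Depth is known only as far as the step of the heights shows it (tolerance 0.05 of a step), and no interval was computed. Alternatives were other windows, distance limits, lists, scalings and each library alone.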

Additional observations from a re-analysis of the deposited data

How the results depend on the processing

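Of 61 alternative values over 10 results, 52 stayed within the spread of the libraries (for a count, within 1.5 times, and for the log2 ratio, within 0.1) and 9 did not. For the median promoter height, DHS count and summed height, either library alone always falls within the spread around the mean of both. Those values are counted among the 52 but say nothing on how stable these medians are. The median DHS count per member, 8.25 as the mean of both libraries, was 4 with the shorter peak list, 3 with the 50000 strongest DHSs, 7.25 with a limit of 50 kb and 9 with 200 kb. The median log2 ratio between the libraries changed sign with unscaled heights (−0.29), shared DHSs alone (−0.11) and DHS counts in place of heights (−0.20), where that of all genes was −0.36, −0.08 and −0.17, so no direction of the members between the animals is given. Counting TGACG in place of the full CRE raised the members with a match in both libraries from 2 to 12. With the 50000 strongest DHSs, 76.5% of member DHSs away from promoters overlapped between the libraries, as the mean of both. The 36 members open in both were 36 with windows of 500 bp or 2 kb, and 31 with the 50000 strongest DHSs, without Adcy1, Adcy2, Adcy8, Gnal and Rapgef4. Each library alone gave 36. The cause of these shifts was not tested. The median DHS height was 121 steps in replicate 1 and 81 in replicate 2, and how depth limits the weak sites was not tested. No paired analysis was possible because both libraries belong to 1 group.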

Other observations

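Other letters searched in the 36 strongest promoter DHSs, on both strands, occurred as follows. The GC box GGGCGG, a sequence of Sp family factors, was in 28 and 25 of the 36 DHSs, against 64.3% and 62.1% of strongest promoter DHSs of all genes. CCAAT was in 10 and 10, against 30.3% and 30.4%. AAGGTCA, to which the adrenal factor SF-1 binds, was in those of Adcy7 and Adcy10 in both libraries and of Rapgef4 in replicate 2, against 1.67% and 1.68%, and these counts of 2 and 3 are too small to read as a difference. TGANTCA, the AP-1 sequence, was in those of Adcy3 in both libraries and of Rapgef3 in replicate 1, against 3.25% and 3.04%.

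In the printed sites of Crebbp, Adcy5 and Rapgef4, the letters CNAGGNGG, part of the binding sequence of the insulator protein CTCF, occur on 1 strand or the other. They were chosen after these sequences were seen. Among all DHSs of the 38 genes away from promoters they were in 16.4% in replicate 1 and 14.8% in replicate 2, against 16.5% and 12.9% of all such DHSs, which had similar median widths (160 and 160 bp in replicate 1, 142 and 141 bp in replicate 2). The shares of the 38 genes were thus near the background.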
